A study of Mus musculus with 6 samples.

Results

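The apelin and adrenomedullin systems, a pair of peptide systems of sprouting vessels, were followed in the retinas of Emcn-/- and Emcn+/+ mice through 9 genes of the 28627 in the table. The genes were taken by symbol: the ligands Apln, Apela and Adm, the receptors Aplnr and Calcrl, the receptor partners Ramp1, Ramp2 and Ramp3, and the scavenging receptor Ackr3. All 9 passed the filter on low values and were among the 16681 genes tested. The set was chosen by symbol with earlier fold changes of the same genotype comparison known, among them those of Apln and Adm, so the fold changes and p-values of the members below describe these libraries and support no further statement.

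The retinas came from postnatal day 15 pups of the oxygen-induced retinopathy model, in which young mice breathe high oxygen, lose retinal capillaries, and after return to room air develop a hypoxic retina with new vessels. There were 3 samples of Emcn+/+ genotype and 3 of Emcn-/- genotype, described as littermates, and both groups went through the oxygen model, so no library here shows the retina without it. The labels name no strain, Cre driver or time of deletion, and do not say whether a sample was 1 animal, so p-values measure only the spread between these samples. The deleted gene, Emcn, codes for endomucin, a mucin-like glycoprotein that coats endothelial cells.

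Apelin is a secreted peptide made by the tip cells that lead a vascular sprout, and its receptor Aplnr sits on endothelial cells of growing veins and capillaries. Apela encodes another peptide for the same receptor. Adrenomedullin, from Adm, is a vasodilator and vessel growth peptide whose transcript is induced by low oxygen. Its receptor is Calcrl joined to a RAMP protein: with RAMP2 or RAMP3 the pair binds adrenomedullin, and with RAMP1 it binds the calcitonin gene-related peptide. Ackr3 is an atypical receptor that takes up adrenomedullin and the chemokine CXCL12 without signalling through G proteins.

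The 2 peptides of Aplnr are shown by their coding sequences, since they differ in length and share no name, and the capitals mark the codons of the C-terminal peptide, 13 codons of apelin and 32 of the Apela peptide. Both were read from the GENCODE M21 transcripts (GRCm38, 5′ to 3′ on the coding strand), and the coding part holds 77 codons before the stop in Apln (chromosome X, 48028299 to 48034505, minus strand) and 54 in Apela (chromosome 8, 65035666 to 65036965, minus strand).
Apln: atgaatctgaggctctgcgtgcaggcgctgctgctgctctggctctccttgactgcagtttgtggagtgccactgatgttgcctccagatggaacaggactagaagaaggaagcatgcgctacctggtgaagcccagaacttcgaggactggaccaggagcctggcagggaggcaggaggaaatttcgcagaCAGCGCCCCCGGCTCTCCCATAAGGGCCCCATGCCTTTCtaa
Apela: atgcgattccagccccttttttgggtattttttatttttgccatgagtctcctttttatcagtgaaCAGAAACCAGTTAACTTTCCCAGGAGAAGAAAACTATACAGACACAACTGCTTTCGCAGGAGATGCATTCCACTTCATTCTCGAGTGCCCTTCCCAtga

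The upstream sequences of Apln, Adm and Ackr3, the members with the highest positive log2 fold changes below, and of Ramp3, the other member with a match, are shown because hypoxia-inducible factors bind a short core, here searched as ACGTG or GCGTG on both strands, with overlapping matches counted separately. Each is the 250 bases before the RefSeq gene start (GRCm38.p6), and the capitals mark the matches: Apln at chrX:48034854-48035103 (minus strand), Adm at chr7:110627407-110627656 (plus strand), Ackr3 at chr1:90203730-90203979 (plus strand) and Ramp3 at chr11:6658283-6658532 (plus strand).
Apln: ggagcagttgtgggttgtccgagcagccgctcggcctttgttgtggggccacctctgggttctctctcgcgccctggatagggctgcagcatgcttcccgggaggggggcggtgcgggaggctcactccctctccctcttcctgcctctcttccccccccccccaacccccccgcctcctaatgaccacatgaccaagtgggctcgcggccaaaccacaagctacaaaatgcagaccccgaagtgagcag
Adm: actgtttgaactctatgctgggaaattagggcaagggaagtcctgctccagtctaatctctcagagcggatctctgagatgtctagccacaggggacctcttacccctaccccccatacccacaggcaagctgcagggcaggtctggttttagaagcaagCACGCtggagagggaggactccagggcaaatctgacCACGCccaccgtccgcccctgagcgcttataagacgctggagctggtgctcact
Ackr3: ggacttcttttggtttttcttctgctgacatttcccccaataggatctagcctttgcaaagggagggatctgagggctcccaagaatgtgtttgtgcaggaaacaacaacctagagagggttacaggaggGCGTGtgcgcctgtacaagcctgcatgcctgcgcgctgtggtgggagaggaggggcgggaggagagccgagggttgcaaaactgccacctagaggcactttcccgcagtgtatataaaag
Ramp3: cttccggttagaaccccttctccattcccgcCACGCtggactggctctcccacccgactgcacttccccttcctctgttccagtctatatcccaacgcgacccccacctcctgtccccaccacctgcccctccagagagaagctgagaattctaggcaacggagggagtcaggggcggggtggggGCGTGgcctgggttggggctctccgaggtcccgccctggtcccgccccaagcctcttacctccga
Adm held 2 matches, starting 90 and 54 bases before the gene start, Ramp3, with a log2 fold change of 0.07, also held 2, at 219 and 65 bases, and Ackr3 held 1, starting 120 bases before it, while these letters were not in the Apln window. A match stood in 3 of the 7 members in the promoter table and in 38.6% of its 32851 windows, so a match is common and is given as a description only. Aplnr and Ramp2 were not in that table.

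The libraries held 14865868 to 17087621 recovered reads. Emcn read 80.6 to 100.5 normalised reads in Emcn+/+ and 1.04 to 4.62 in Emcn-/- libraries, as labelled, and the rod marker list, which defines the retina, summed to at least 825982 normalised reads in every library. Emcn+/+ replicate 3 stood apart: it was the only library with reads typical of a female (17641 Xist reads and 0 Ddx3y reads), and its interferon list mean was 2.48 against -0.64 to -0.31 in the other libraries. The sample titles form 2 number series, 144 to 148 (2 libraries of each genotype) and 186 and 188 (1 of each, Emcn-/- replicate 3 and Emcn+/+ replicate 3). What the numbers stand for is not given in the labels.

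The apelin ligand Apln stood higher in every Emcn-/- library than in any Emcn+/+ library. Its values were 523, 634 and 787 normalised reads in Emcn+/+ and 1062, 1183 and 898 in Emcn-/-. The highest Emcn+/+ library was replicate 3 and the lowest Emcn-/- library was replicate 3, so the 2 genotypes came closest in the pair of titles 186 and 188. The means were 648 ± 133 and 1048 ± 143 (SD, n = 3 each), a ratio of 1.62, which is a difference of 0.70 ± 0.15 (SE) in log2(value + 1). Log2 fold changes of all genes below are on that scale, Emcn-/- minus Emcn+/+. Within titles 144 to 148 the log2 difference was 0.96 and between 186 and 188 it was 0.19. Apln (ENSMUSG00000037010) lies on GRCm38 chromosome X, 48025146 to 48034853, minus strand.

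Apela, the other peptide of the receptor, had few reads in both genotypes. It read 35.3, 31.5 and 40.4 normalised reads in Emcn+/+ and 35.1, 43.6 and 37.0 in Emcn-/-, so the groups overlapped (log2 fold change 0.11 ± 0.22 SE). An annotated noncoding gene, Gm45886, overlaps it (ENSMUSG00000079042, chromosome 8, 65028417 to 65037336) on the same strand, and reads from the 2 could not be told apart.

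The receptor Aplnr (ENSMUSG00000044338, chromosome 2, 85136225 to 85139923, plus strand) did not follow its ligand upward. Its values were 371, 293 and 321 normalised reads in Emcn+/+ and 260.0, 137 and 331 in Emcn-/-. The lowest value by far was Emcn-/- replicate 2, while Emcn-/- replicate 3 lay inside the Emcn+/+ range, so the groups overlapped. The log2 fold change was -0.52 ± 0.28 (SE), and without Emcn-/- replicate 2 it was -0.16. That same library had the lowest mean of the endothelial list, -0.59 against 0.06 to 0.22 in the other 5 libraries, over 19 tested markers without Emcn. In the whole retina, fewer endothelial cells and less Aplnr RNA in each cell cannot be told apart.

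**Figure D1:**
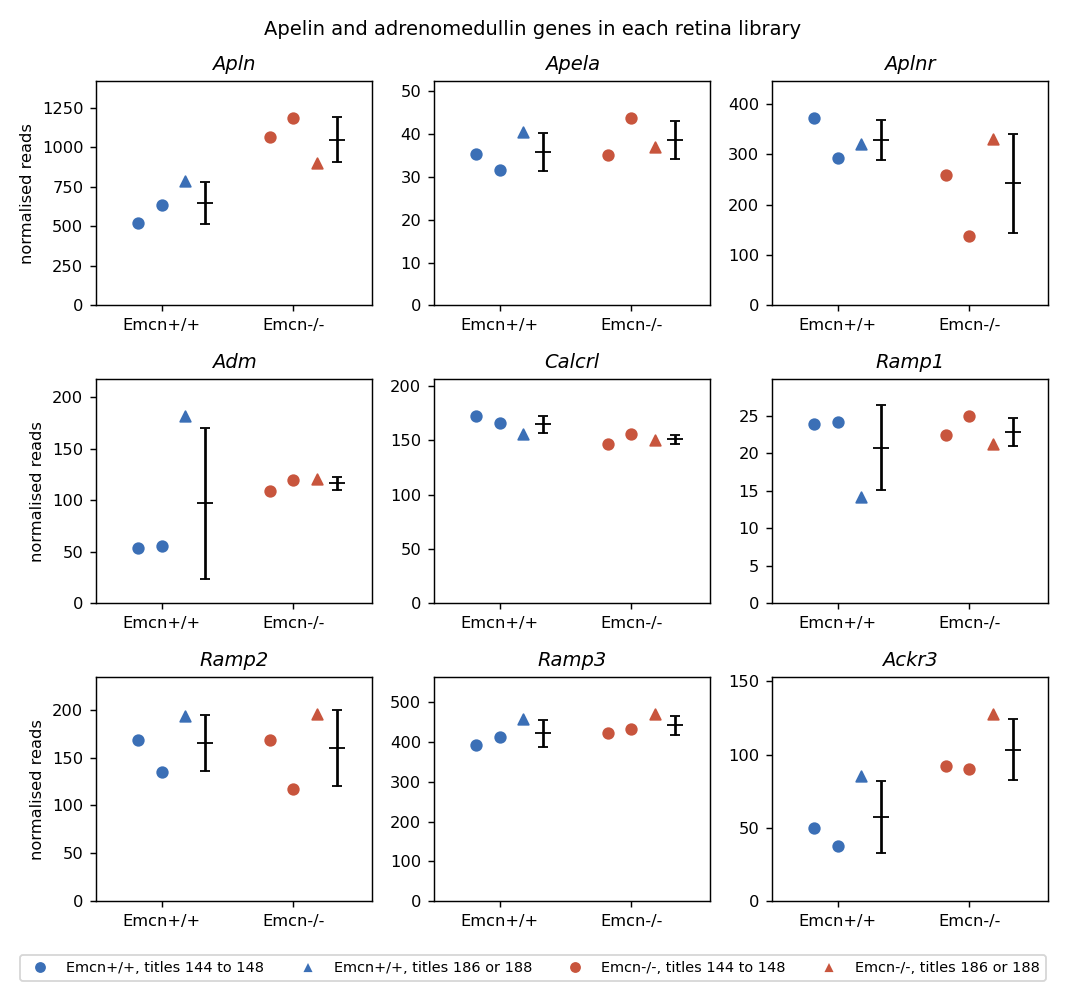
Normalised reads of the 9 genes in each library, by genotype, with mean and SD beside the points; circles are titles 144 to 148 and triangles titles 186 and 188. Apln and Ackr3 lie higher in all 3 Emcn-/- libraries, and the Adm value of 181 in Emcn+/+ replicate 3 lies above every Emcn-/- library.

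Ligand and receptor of the apelin system were also set against each other in each library. The log2 ratio of Apln to Aplnr within a library was 0.49, 1.11 and 1.29 in Emcn+/+ and 2.03, 3.10 and 1.44 in Emcn-/-. The groups did not overlap, although Emcn-/- replicate 3 was only 0.15 above Emcn+/+ replicate 3. The difference of the means was 1.22, and it went from 0.77 without Emcn-/- replicate 2 to 1.599 without Emcn-/- replicate 3. The ratio is not adjusted for gene length, so it is read across libraries only, and no test is given for it, because both genes were chosen for this comparison.

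Adm, the adrenomedullin ligand (ENSMUSG00000030790, chromosome 7, 110627661 to 110629820, plus strand), split the Emcn+/+ libraries. It read 53.9, 55.6 and 181 normalised reads in Emcn+/+ and 109, 119 and 121 in Emcn-/-. Emcn+/+ replicates 1 and 2 lay below every Emcn-/- library and Emcn+/+ replicate 3 above all of them, while the Emcn-/- libraries stayed within a narrow range (116 ± 6.48, against 96.9 ± 73.05 in Emcn+/+; SD, n = 3 each). The log2 fold change was 0.50 ± 0.41 (SE) over all libraries, 1.07 without Emcn+/+ replicate 3, 0.21 without replicate 1 and 0.23 without replicate 2 of the same genotype. It was 0.27 with edgeR on the recovered reads. Within titles 144 to 148 the difference was 1.04, and between 186 and 188 it was -0.58. The antisense gene Gm28863 overlaps Adm, and the labels name both a directional and a non-directional library kit, so reads of the 2 could not be told apart.

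The receptor Calcrl (ENSMUSG00000059588, chromosome 2, 84330626 to 84425411, minus strand) stayed within a narrow range. It read 172, 166 and 156 normalised reads in Emcn+/+ and 147, 156 and 151 in Emcn-/-. The lowest Emcn+/+ value (156.2, replicate 3) and the highest Emcn-/- value (155.6, replicate 2) were less than 1 normalised read apart, so the groups only just did not overlap. The log2 fold change was -0.12 ± 0.11 (SE), between -0.16 and -0.09 over the alternatives.

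The 3 RAMP genes showed no separation of the genotypes. Ramp2, the partner that makes the main vascular adrenomedullin receptor, read 168, 134 and 193 normalised reads in Emcn+/+ and 168, 117 and 195 in Emcn-/- (-0.06 ± 0.21 SE on the log2 scale). Ramp3 read 392, 412 and 458 in Emcn+/+ and 422, 433 and 469 in Emcn-/- (0.07 ± 0.09). Ramp1 read 23.9, 24.1 and 14.2 in Emcn+/+ and 22.4, 24.9 and 21.3 in Emcn-/- (0.17 ± 0.29). All 3 overlapped between genotypes, and the signs of Ramp1 and Ramp2 changed with single libraries left out. Vps25 overlaps Ramp2 on the same strand and the pseudogene Gm11978 overlaps Ramp3 on the opposite strand, so a share of the reads of both is uncertain.

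The log2 ratio of Adm to Calcrl within a library was -1.66, -1.56 and 0.21 in Emcn+/+ and -0.43, -0.38 and -0.31 in Emcn-/-. Since Calcrl hardly varied, this ratio followed Adm, and Emcn+/+ replicate 3 lay above all Emcn-/- libraries. The ratio of Ramp2 to Calcrl was -0.03, -0.30 and 0.31 in Emcn+/+ and 0.19, -0.41 and 0.37 in Emcn-/-. It varied more within a genotype than between them (difference of the means 0.06).

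**Figure D2:**
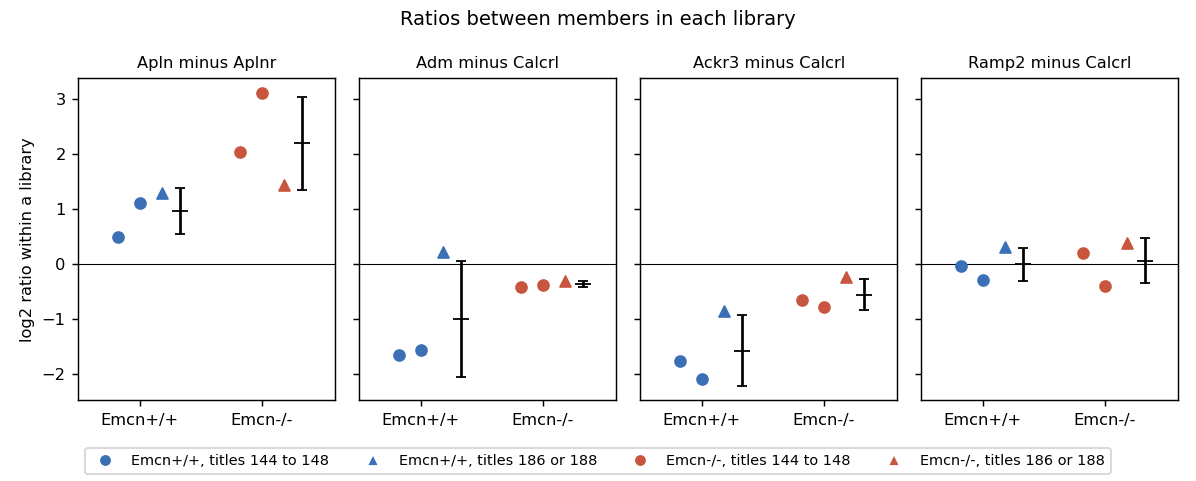
Log2 ratios between pairs of members within each library, with mean and SD by genotype; circles are titles 144 to 148 and triangles titles 186 and 188. The Apln to Aplnr and Ackr3 to Calcrl ratios do not overlap between genotypes, while the Adm to Calcrl and Ramp2 to Calcrl ratios do. For Ackr3 to Calcrl this follows from the genes themselves, which lie apart in opposite directions.

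Ackr3 (ENSMUSG00000044337, chromosome 1, 90203980 to 90216751, plus strand), which clears adrenomedullin and CXCL12, had the highest fold change of the 9. It read 49.8, 38.0 and 85.2 normalised reads in Emcn+/+ and 92.5, 90.2 and 127.5 in Emcn-/-. Every Emcn-/- library lay above every Emcn+/+ library, and in each genotype replicate 3 was the highest. The means were 57.7 ± 24.6 and 103 ± 20.9 (SD, n = 3 each), a ratio of 1.79, and the log2 fold change was 0.89 ± 0.29 (SE). Unlike Adm it was higher in Emcn-/- in both title series, by 1.05 within 144 to 148 and by 0.58 between 186 and 188. Against Calcrl, the log2 ratio of Ackr3 was -1.77, -2.10 and -0.87 in Emcn+/+ and -0.66, -0.78 and -0.24 in Emcn-/-, a difference of the means of 1.02. The ratio could not overlap, since Ackr3 was higher and Calcrl lower in Emcn-/- without overlap, so it mainly follows Ackr3 and is no separate result. The recovered reads behind these values were 41 to 138 per library, so counting error is a larger part of its spread than for Apln, with 504 to 1140.

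By genotype, 6 of the 9 members had positive and 3 negative log2 fold changes, with a median of 0.11 against 0.01 over all tested genes. All 3 ligands were positive, while 3 of the 6 genes on the receptor side (Aplnr, Calcrl and Ramp2) were negative. Of all genes tested, 52.0% were positive, so the receptor side was near that share. Of the ligands, Apela lay within its SE of 0 (0.11 ± 0.22), and Adm was negative between titles 186 and 188 (-0.58). limma called 0 of the 9 members, where it called 0.00599% of all genes tested, and the adjusted p-values were 0.374 for Apln, 0.518 for Ackr3, 0.658 for Aplnr, 0.759 for Adm and 0.784 to 0.955 for the other members. The only gene limma called was the deleted Emcn (log2 fold change -4.83, limma adjusted p = 0.0143). A lack of calls among the members therefore does not show that they were unchanged. An unadjusted limma p under 0.05 was reached by 2 members, Apln and Ackr3, both higher in Emcn-/-, and by 8.14% of all genes tested (3.67% higher). edgeR called 0 of 9 and 0.00599% of all genes. DESeq2 called Apln, the 1 member to which its filter on the mean left an adjusted p (0.000738), and 1.12% of all genes with one. Without that filter DESeq2 called Apln alone of the 9 (adjusted p = 0.00208) and 0.402% of all genes. The genotypes did not overlap for 3 members, Apln and Ackr3 (higher in Emcn-/-) and Calcrl (lower), and for 14.4% of all genes tested, 7.48% higher and 6.94% lower.

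The limma calls of members depended on 1 library. Without Emcn+/+ replicate 3, limma called 3 members as higher, Apln (log2 fold change 0.85, adjusted p = 0.0180), Adm (1.07, 0.0294) and Ackr3 (1.21, 0.0465), where it called 0.905% of all genes, 0.228% as higher and 0.677% as lower. Within titles 144 to 148 alone, with 2 libraries a genotype, it called Apln (0.96, limma adjusted p = 0.0237) and 0.252% of all genes (0.048% as higher). Emcn+/+ replicate 3 differs from the other libraries in its Xist and Ddx3y reads, in its interferon list mean and in its glial reactivity list mean (0.70 against -0.46 to 0.25). Marker lists of other cell types also differed in summed level between genotypes, with none of their genes called by limma or edgeR. All 12 tested pigment epithelium and ciliary markers were positive (median log2 fold change 0.82). Their sums were 6065 to 11278 normalised reads in Emcn+/+ and 12988 to 16582 in Emcn-/-. Their list means overlapped, at 0.13, -1.03 and -0.37 in Emcn+/+ and 0.12, 0.39 and 0.76 in Emcn-/-. The lowest mean by far was that of Emcn+/+ replicate 2. Of these 12, 10 had an unadjusted limma p under 0.05, against 8.14% of all genes tested. The genotypes did not overlap for 6 of them, against 14.4% of all genes, and DESeq2 without its filter called Col9a1. All 10 rod markers were positive (median 0.10), with sums of 825982 to 878925 and 911089 to 961120. Of these, 1 had an unadjusted limma p under 0.05, and DESeq2 called 0. No marker of these lists was at 0. The part of each of these in the values of the members was not tested.

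**Figure D3:**
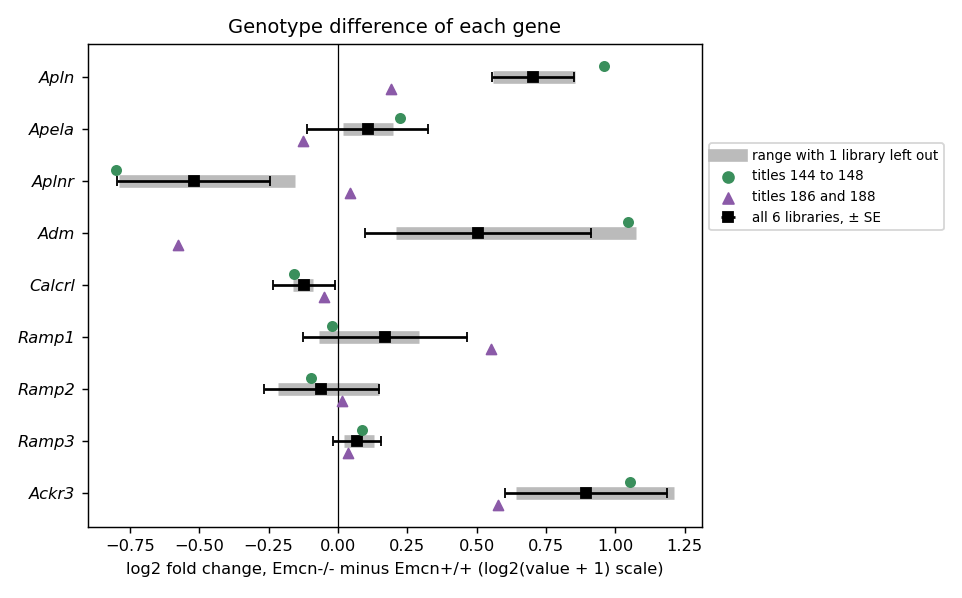
Log2 fold change of each gene, Emcn-/- minus Emcn+/+, over all 6 libraries with its SE, the range when 1 library is left out (grey bar), and the difference within each title series. Apln and Ackr3 lie above 0 in both series, while Adm (1.04 and -0.58) and Aplnr (-0.80 and 0.04) change sign between them. So do Apela (0.22 and -0.13), Ramp1 (-0.02 and 0.55) and Ramp2 (-0.10 and 0.01).

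Each member was also set against low-oxygen genes and vessel markers across libraries, without use of the genotype labels. Both genotypes were pooled, so a genotype difference shared by a member and a list enters these values. Of the hypoxia response genes tested, 18 had positive and 7 negative log2 fold changes. An unadjusted limma p under 0.05 was reached by 5, against 8.14% of all genes tested. The genotypes did not overlap for 6, against 14.4% of all genes. limma and edgeR called 0, and DESeq2 without its filter called 1. The hypoxia response list, 25 tested genes without any member, had means of -0.12, -0.20 and 0.15 in Emcn+/+ and -0.03, 0.08 and 0.12 in Emcn-/- (centred log2). Adm and the list mean were both lowest in Emcn+/+ replicates 1 and 2 and highest in Emcn+/+ replicate 3, with Pearson r = 0.94 (exact permutation p = 0.00417, n = 6) and Spearman rho = 0.94 (exact permutation p = 0.0167, n = 6). Adjusted over the 18 relations computed, none passed: the p of Adm was 0.075 for r and 0.300 for rho. Without the 2 libraries farthest from the median, Emcn+/+ replicates 1 and 2, the r of Adm was 0.74, and leaving out 1 library gave 0.92 to 0.96. Ackr3 (r = 0.88, exact permutation p = 0.0236, n = 6) and Ramp3 (r = 0.86, exact permutation p = 0.0361, n = 6) also went with the list, both at 0.163 after adjustment. The r of Ackr3 was 0.16 without those 2 libraries, so its relation rests on them, and that of Ramp3 was 0.86. Their rho values were 0.60 and 0.89 (exact permutation p = 0.242 and 0.0333). Apela gave r = 0.82 (exact permutation p = 0.0528, n = 6; 0.190 adjusted) and rho = 0.77 (exact permutation p = 0.103), with r = 0.53 without the same 2 libraries. Apln was less close (r = 0.61, exact permutation p = 0.206, and rho = 0.43, exact permutation p = 0.419). Its r turned to -0.65 without the same 2 libraries, so its sign rests on them. Calcrl (r = -0.64, exact permutation p = 0.179, n = 6) and Ramp1 (r = -0.60, exact permutation p = 0.176, n = 6) had negative r. Without the same 2 libraries the r of Calcrl turned to 0.77, and that of Ramp1 was -0.58. The remaining members were Aplnr (r = -0.23, exact permutation p = 0.739) and Ramp2 (r = 0.38, exact permutation p = 0.4375). No r is given within a title series, because both hold fewer than the 6 libraries set here as the least for a correlation across samples.

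Against the endothelial list, Aplnr gave r = 0.89 (exact permutation p = 0.125, n = 6) but rho = 0.20 (exact permutation p = 0.714). It turned to -0.79 without Emcn-/- replicates 2 and 3, so the relation rests on those libraries, mainly on replicate 2. Ramp2 gave r = 0.79 (exact permutation p = 0.0319, n = 6) and rho = 0.71 (exact permutation p = 0.136), with an adjusted p for r of 0.163, and 0.07 without the same 2 libraries. Apela gave r = -0.67 (exact permutation p = 0.171, n = 6) and rho = -0.49 (exact permutation p = 0.356). Its r was -0.09 without those 2 libraries. Apln gave -0.42 over all libraries and 0.79 without Emcn-/- replicate 2, in which Apln was highest (1183) and the endothelial mean lowest. The other members had r from -0.30 (Ramp1) to 0.08 (Ramp3). The 20 endothelial markers, here with Emcn, summed to 9268 to 9506 normalised reads in Emcn+/+ and 6274 to 9450 in Emcn-/-, and none of them was at 0 throughout. The low sum was that of Emcn-/- replicate 2 alone, and the other Emcn-/- libraries lay within the Emcn+/+ range. Kdr by itself gave 2250 to 3164 of these reads per library.

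**Figure D4:**
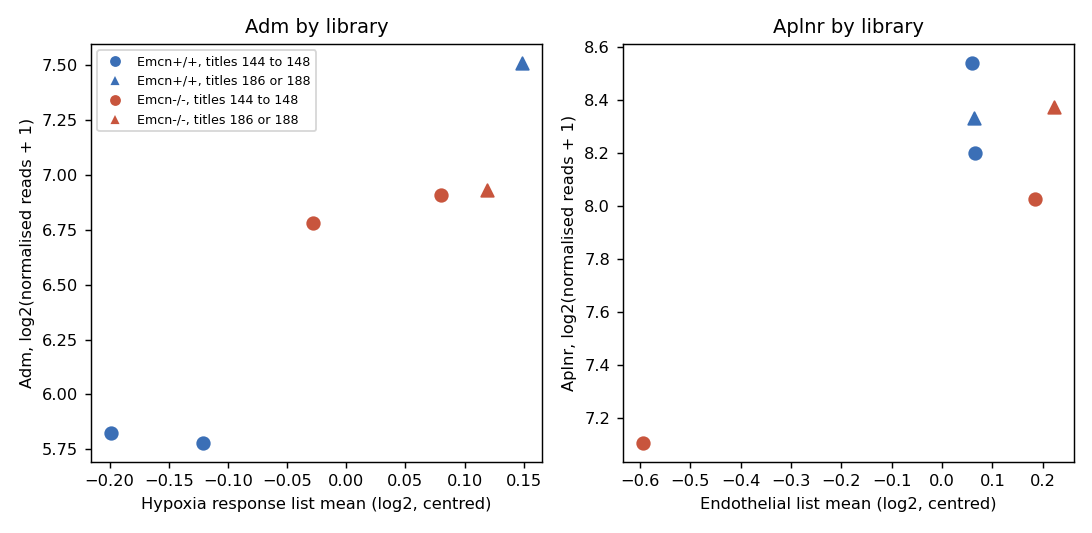
Adm against the mean of the hypoxia response list (left) and Aplnr against the mean of the endothelial list (right), log2 scale, 1 point per library. Adm is higher where the hypoxia mean is higher, across both genotypes (r = 0.94), while the Aplnr relation rests on Emcn-/- replicate 2 at an endothelial mean of -0.59.

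Per kilobase of exon, the order of the members was led by Ramp3 and Apln. Ramp3 spanned 284 to 340 normalised reads per kilobase and Apln 166 to 376, and they changed places between genotypes: 305 ± 24.3 and 206 ± 42.2 in Emcn+/+, 319 ± 17.8 and 333 ± 45.3 in Emcn-/- (SD, n = 3). Then came Aplnr (37.0 to 100.4), Adm (33.3 to 112), Ramp2 (35.5 to 59.1), Apela (31.4 to 43.4), Calcrl (30.1 to 35.3), Ackr3 (11.4 to 38.1) and Ramp1 (4.70 to 8.24). Of the 8 neighbouring pairs, 2 did not overlap in any library, Apln from Aplnr and Ackr3 from Ramp1, and the others were not apart beyond their spread. Ramp3 was thus far more abundant per exon length than Calcrl, the receptor it joins, and Ramp1, the partner for the calcitonin gene-related peptide, was the lowest. Per coding length Apln stood first (2263 to 5119 per kilobase), as its coding part is short against its exons (231 of 3149 bases), and Ramp3 second (889 to 1062).

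**Figure D5:**
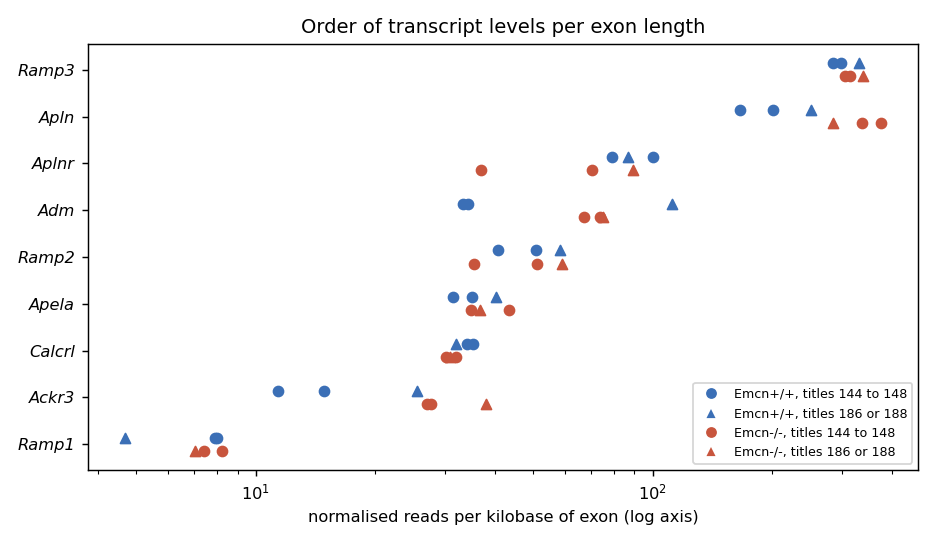
Normalised reads per kilobase of exon on a log axis for each gene and library, ordered by mean; colours give the genotype and shapes the title series. Ramp3 and Apln lie above all other members and Ramp1 below them.

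Genes that make, clear or transmit these peptides gave no call. Of 15 genes of peptide processing and clearance, limma, edgeR and DESeq2 called 0, with 5 positive, 10 negative and a median of -0.03. An unadjusted limma p under 0.05 was reached by 1 of them, against 8.14% of all genes tested. Pam, which amidates adrenomedullin, read 1183 to 1455 normalised reads in Emcn+/+ and 1201 to 1393 in Emcn-/- (0.01 ± 0.09 SE). Cpe, a carboxypeptidase of peptide hormones and the gene of that list with the most reads, averaged 18485 ± 1393 (SD, n = 3) in the Emcn+/+ group against 19749 ± 249.6 (SD, n = 3) without Emcn, which is 0.10 ± 0.07 (SE) in log2.

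Of 19 genes of G protein and arrestin coupling, limma, edgeR and DESeq2 called 0, with 10 positive and 9 negative. An unadjusted limma p under 0.05 was reached by 2 of them, against 8.14% of all genes tested. The smallest p were those of Gnai2, an inhibitory alpha subunit (0.19 ± 0.07, limma adjusted p = 0.534), and Gna13 (-0.17 ± 0.06, 0.544). Of 4 tested chemokine partners of Ackr3, limma called 0 (1 at an unadjusted p under 0.05; 0 with edgeR, 0 with DESeq2). Cxcl12, the chemokine that Ackr3 takes up, read 234 to 295 in Emcn+/+ and 219 to 290.2 in Emcn-/- (-0.02 ± 0.14), while Mif read 3114 to 3623 and 3768 to 3985 (0.23 ± 0.07, limma adjusted p = 0.479). Cxcr4, the signalling receptor of CXCL12, read 92.3, 99.2 and 137.6 in Emcn+/+ and 109, 141 and 134 in Emcn-/- (0.23 ± 0.19, 0.752).

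Relatives of the peptides were scarce. Adm2 gave 0 to 8.74 normalised reads, Calcb, a gene for calcitonin gene-related peptide, 0 to 8.30, and Calcr, the calcitonin receptor, 0 to 2.18 in the 6 libraries. Of the 3 relatives that were tested, limma called 0 (0 at an unadjusted p under 0.05; 0 with edgeR, 0 with DESeq2): Calca (-0.42 ± 0.46), the receptor Gpr182 (0.19 ± 0.25) and Crcp, a component of the calcitonin gene-related peptide receptor complex (-0.04 ± 0.07), which had the most reads.

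Other genes of sprouting vessels went in both directions. Of 19 tested, limma, edgeR and DESeq2 called 0, with 11 positive, 8 negative and a median of 0.09. An unadjusted limma p under 0.05 was reached by 4 of them, against 8.14% of all genes tested. The tip cell marker Esm1 (1.03 ± 0.31, limma adjusted p = 0.482) was positive and the growth factor receptor Kdr (-0.26 ± 0.08, 0.499) negative. Kdr was the only negative gene of the 4, as Angpt2 (0.58 ± 0.21, 0.534) and Nid2 (0.41 ± 0.16, 0.560) were positive too. Vegfa, the ligand with the most reads of that list, had 0.17 ± 0.11.

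By pattern over the 6 libraries, the genes most like Apln were Gnb1, Arpc1a, R3hdm4, C1ql2 and Ndufb3, with r of 0.99 each, among 12051 genes of mean at least 50. Their own log2 fold changes were 0.08 to 0.20, far below that of Apln. Most like Adm were Clptm1 (r = 0.995), Tspan4, Fxyd1, Zc3h18 and Ap2s1, with log2 fold changes of 0.05 to 0.23. Most like Aplnr were Abcc9, a potassium channel subunit of pericytes (r = 0.99), Zfp366, Edrf1, the proliferation marker Mki67 and Cand1. With 6 libraries such values are common: r was above 0.95 for 57, 135 and 31 genes with Apln, Adm and Aplnr.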

How the data were processed

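Poly-A RNA of 6 retina samples was sequenced. The deposited table holds a signal per gene, which the authors had scaled by 1 factor per library, without a length adjustment. The scaling method is not given in the sources. Every library's values were whole steps (100%, within 0.001 of a read), so that division by the step gave back reads. The build was GRCm38, per the submitters' processing notes; the sources name no aligner, counter or annotation. A count of 0 allows up to 3 reads, 2.77 to 3.28 normalised reads, for counting error only.

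The main test, in limma 3.58.1 under R 4.3.3, used a trended variance prior on log2(value + 1) of 16681 genes kept by edgeR's expression filter (minimum count 10), without covariates. P-values were two-sided, adjusted by Benjamini-Hochberg over all these genes, and called under 0.05. Recovered reads went into edgeR 4.0.16 and into DESeq2 1.42.0 as alternatives. Exonic and coding lengths are unions over GENCODE M21 transcripts. A list mean is the mean over tested genes of log2(value + 1) centred per gene. Other alternatives changed the scaling, filter, pseudocount, libraries, length trend and title series. DESeq2 without its filter and titles 144 to 148 alone were chosen after seeing the data. Scripts were tested on simulated data.

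The members and lists were chosen with earlier results of these data known. Named were all members, and from each partner list the genes called, the 2 of smallest p and the one of highest mean, plus for Apln, Adm and Aplnr the 5 named genes of highest r. Some genes that this rule names are not reported here. Pam, Cxcl12, Adm2, Calcb, Calcr and the overlapping genes were named for their roles or positions after their values were seen. Angpt2, Nid2 and Col9a1 were named for their p-values.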

Additional observations from a re-analysis of the deposited data

Results flagged for a closer look

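Adm went in opposite directions in the title series: both Emcn-/- libraries of titles 144 to 148 lay above both Emcn+/+ libraries (log2 difference 1.04), while in the pair of titles 186 and 188 the Emcn-/- library lay below (-0.58). Aplnr was lower in Emcn-/- within 144 to 148 (-0.80) and about level in the pair (0.043). A change of sign between the series was not particular to these genes. Apela (0.22 and -0.13), Ramp1 (-0.02 and 0.55) and Ramp2 (-0.10 and 0.01) changed sign as well. The pair of titles 186 and 188 holds 1 library a genotype and the other series 2, and the difference between the series was not tested.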

How the results depend on the processing

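limma called 1 gene over all genes, the deleted Emcn. With 1 library left out the count went from 0 to 151 (0 without Emcn+/+ replicate 1 or 2 or Emcn-/- replicate 1, where 1125, 826 and 1147 genes had an unadjusted p under 0.05). In those runs even Emcn was not called (limma adjusted p = 0.092, 0.191 and 0.155). DESeq2 called 72 genes, 67 without its filter on the mean, and limma on titles 144 to 148 alone called 42. Emcn was not among the 72, as that filter left it without an adjusted p. Without the filter Emcn was called (DESeq2 adjusted p = 3.03e-14). The cause of the differing counts was not tested. With 1 library left out, the log2 fold change of Ramp1 ranged from -0.069 (without Emcn+/+ replicate 3) to 0.292, and it was -0.021 within titles 144 to 148. That of Ramp2 ranged from -0.216 to 0.148, positive without Emcn+/+ replicate 3 (0.061) or Emcn-/- replicate 2 (0.148). The other 7 members kept their sign in every alternative run. With the title series as a block, the limma adjusted p of Apln was 0.133 and that of Ackr3 0.136. With the length trend removed they were 0.668 each. The Apln to Aplnr difference ranged from 0.77 to 1.599 and the Adm to Calcrl difference from 0.30 to 1.23 with 1 library left out. Ramp1 did not pass the stricter filter (minimum count 30) and has no value there. No paired analysis was possible because the labels number no replicates, and the numbers used here follow only the order of the samples; the block on the title series is not such a pairing. At this depth Ramp1 rested on 13 to 26 reads per library and Apela on 34 to 42.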
